A study of Arabidopsis thaliana with 27 samples.

Results

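The 35 genes described here are 29 IAA genes, which encode Aux/IAA transcriptional repressors, and 6 GH3 genes, which encode acyl acid amido synthetases. They were chosen by gene identifier, among the 33602 genes counted in each of 27 RNA-seq libraries of Arabidopsis protoplasts. The rule used no measured value, but earlier results of these data were known when the members were chosen. Aux/IAA proteins bind auxin response factors (ARFs) and recruit the TOPLESS corepressors to their targets. Auxin joins an Aux/IAA protein to a TIR1/AFB F-box receptor, the Aux/IAA protein is degraded and the ARF is released. Many IAA and GH3 genes are themselves early targets of this release, and GH3 enzymes such as GH3.2, GH3.3, GH3.5, GH3.6 and GH3.17 join indole-3-acetic acid to amino acids, so both families close a feedback loop on the hormone.

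Leaf protoplasts came from the first true leaves of plants grown for 17 d in constant white light of 50 µE m-2 s-1. In IQD22pro::GUS-mCit plants, cells with chlorophyll and mCit fluorescence were sorted as palisade cells, and cells with chlorophyll but no mCit as reference cells. Both populations were collected without transcription inhibitors in low light, with inhibitors (actinomycin D and cordycepin during protoplasting) in low light, and with inhibitors after 2 h at 300 µE m-2 s-1, called high light below. The enhancer trap line JR11-2, whose GFP is strongest in the lower spongy mesophyll, gave GFP-negative cells, labelled palisade, and GFP-positive cells, labelled reference, without inhibitors in low light. Total root protoplasts of Col-0 plants, also without inhibitors in low light, make the 9th group, and each group has 3 libraries. A palisade and a reference library of the same number were sorted from 1 protoplast pool, and there are 12 such pools. The mCit gate follows the IQD22 promoter and the reference gate is a mixture of chlorophyll-containing cells, so a population is not a single cell type. The JR11-2 populations follow another reporter.

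Each library held 15074702 to 38792923 counts on genes. Levels are given as CPM, a count relative to the total of its library after TMM scaling over all 27 libraries. The floor of detection was 3 counts. Relative to the total of nuclear counts of each library, without TMM scaling, this floor corresponds to 0.0773 to 0.199 CPM. On the TMM scale of the levels, 3 counts correspond to other values. The floor and all intervals cover counting error only. The summed level of 3 mesophyll markers was 7614 to 31629 CPM in leaf libraries and 5.66 to 7.70 CPM in root libraries, and that of 3 root markers was 94.0 to 194 CPM in root and at most 0.151 CPM in leaf. In bulk libraries, fewer expressing cells and less RNA per cell cannot be told apart. p-values measure the spread between these libraries, each made from one preparation of protoplasts.

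Of the 35 genes, 9 (IAA5, IAA15, IAA20, IAA29 to IAA33 and GH3.1) had at most 6 counts in every leaf library, and IAA15 passed the filter on low counts in no comparison. The counts of members tested below refer to those that passed this filter.

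The sequence that auxin acts on was read from the TAIR10.1 RefSeq assembly, in which all 35 identifiers matched an annotated gene. The degron of an Aux/IAA protein, the stretch that TIR1/AFB receptors bind through auxin, has a core of glycine, tryptophan and a pair of prolines. A coding stretch for this core was found in 23 of the 29 IAA genes, each within 1 exon, and in no GH3 gene. The 6 without it were IAA20, IAA30, IAA31, IAA32, IAA33 and IAA34, and none of these 6 exceeded 15 counts or 1.14 CPM in any of the 24 leaf libraries. The coding strand is shown, 5′ to 3′, for 5 members on which the results below turn, with the 12 bases of the core in capitals. All 5 encode the same core:
IAA2, chr3:8181387-8181416, minus strand: caaatcgttGGTTGGCCACCAgtgagatct
IAA16, chr3:1289730-1289759, minus strand: caagttgtgGGATGGCCACCGgtacgatct
IAA17, chr1:1136938-1136967, plus strand: caagttgtgGGATGGCCACCGgtgagatca
IAA19, chr3:5264307-5264336, plus strand: caggtggtgGGGTGGCCACCGgtttgttct
IAA7, chr3:8195568-8195597, plus strand: caagtggtgGGATGGCCACCTgtgaggaac

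ARFs bind TGTC-containing auxin response elements, and CACGTG is the G-box bound by light-signalling transcription factors such as the PIFs. The letters TGTCTC were searched on both strands, as were those of the variant element TGTCGG and of the G-box, with no site counted for more than 1 motif, from 250 bases before to 50 bases after each annotated gene start. TGTCTC was in the window of 16 of the 35 genes (45.7%), 12 of 29 IAA genes and 4 of 6 GH3 genes, against 14.2% of 26712 protein-coding genes. TGTCGG was in 6 windows (17.1%, against 5.12%) and the G-box in 6 (17.1%, against 7.79%). IAA19 held 3 TGTCTC matches and 1 G-box match, the largest number among the 35 windows. The stretches shown, on the strand of the gene with the motif in capitals, are those of members that differed between libraries with and without inhibitors, and the last is that of IAA7, which differed in JR11-2:
GH3.2, chr4:17579462-17579491, plus strand: gtgggtcccttaTGTCTCcattaactaaca
GH3.3, chr2:9866661-9866690, minus strand: cctcttgtccccTGTCTCggtctaacgata
GH3.5, chr4:13653520-13653549, plus strand: tcttccttattgTGTCTCtactctctactt
IAA19, chr3:5263805-5263834, plus strand: gcaccaaacttaTGTCTCtcatgtgaccga
IAA19, chr3:5263844-5263873, plus strand: cctcagttgaccTGTCTCtgcccccacttt
IAA16, chr3:1291037-1291066, minus strand: taaaaataatctCCGACAaaacactcttta
IAA7, chr3:8194572-8194601, plus strand: tctaatcaagccCACGTGtcataaacccca
The CCGACA of IAA16 is TGTCGG read on the other strand. A match describes these letters and not a site of binding.

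Levels were compared between genes per kb of annotated exon. In leaf cells sorted with inhibitors in low light, IAA16 (AT3G04730) and IAA8 were the highest members. IAA16 was at 59.7 ± 2.83 CPM per kb (SD, n = 3) in palisade cells and 63.0 ± 5.40 in reference cells, and IAA8 at 57.6 ± 14.1 and 66.2 ± 12.1, so their ranges overlapped in both populations. IAA9 (AT5G65670), which acts in leaf morphogenesis, followed at 31.0 ± 2.96 and 39.9 ± 3.42 CPM per kb, below the range of the first pair and above that of the next member, IAA19. Without inhibitors the order was different. IAA2 stood at 311 ± 47.0 CPM per kb in reference cells, ahead of IAA16 at 243 ± 25.9, whereas in palisade cells IAA16 (193 ± 38.9) and IAA2 (169 ± 31.7) overlapped. IAA19, known as MSG2 from its role in hypocotyl tropisms, was the next in both populations, at 81.4 ± 7.68 and 83.8 ± 1.66 CPM per kb. After high light IAA16 was the highest member in both populations, at 120 ± 15.4 CPM per kb in palisade cells and 126 ± 28.3 in reference cells, ahead of IAA8 (40.4 ± 1.72 and 54.6 ± 3.85) with no overlap.

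The comparison of libraries made without and with transcription inhibitors asked how the level of each gene depended on transcription during the preparation of protoplasts. In both populations the same 10 genes were higher without inhibitors, all 5 GH3 genes that were tested and IAA2, IAA10, IAA16, IAA19 and IAA28, and none was lower. How many of all genes were higher in both populations was not counted. A call here is an FDR (the Benjamini-Hochberg-adjusted p of edgeR's quasi-likelihood test over all nuclear genes tested) below 0.05 with a fold above 2. In palisade cells, 10 of 24 members tested were called, against 19.9% of all genes tested in either direction, 19.1% in the higher and 0.868% in the lower direction. In reference cells, 11 of 26 were called, against 22.0%, 20.9% and 1.16%, the 11th being IAA1. The median log2 fold change of the members was 0.77 in palisade and 0.89 in reference cells, and that of all genes tested was 0.03 and −0.04. With upper-quartile scaling in place of TMM, these medians were 0.47 and 0.63 for members and −0.27 and −0.30 for all genes, and the share of calls over all genes that were higher went from 95.6% to 76.4% in palisade and from 94.7% to 75.3% in reference cells, while 10 and 11 members were again called. The palisade median moved with single libraries and with the filter. It was 0.31 to 1.04 with 1 library left out (lowest without replicate 2 and highest without replicate 3 of the libraries without inhibitors), and with at least 10 counts in every library the medians were 0.23 in palisade and 0.38 in reference cells. Of the members tested, 4 in palisade and 2 in reference cells passed the filter through the libraries without inhibitors alone, and among the 18 and 23 that passed it in each group by itself, 8 and 10 were called, all higher. Libraries with and without inhibitors come from different pools, so the inhibitors and the preparation cannot be told apart.

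GH3.6 (AT5G54510), known as DFL1, was the GH3 gene with the largest difference in palisade cells. With inhibitors in low light it was at 2.82, 2.80 and 2.41 CPM in the 3 palisade libraries and at 1.02, 1.51 and 1.02 CPM in the reference libraries. Without inhibitors it was at 75.1, 47.8 and 54.4 CPM in palisade and 76.9, 71.8 and 64.3 CPM in reference libraries. Every library without inhibitors was thus far above every library with them. The log2 difference was 4.53 ± 0.22 (SE, edgeR FDR = 2.32e-07) in palisade and 5.89 ± 0.19 (FDR = 3.56e-09) in reference cells.

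GH3.3 (AT2G23170) behaved alike in direction. It was at 1.26, 0.998 and 1.29 CPM in palisade and 0.465, 0.625 and 0.242 CPM in reference libraries with inhibitors, and at 13.3, 20.9 and 13.0 CPM and 23.7, 48.0 and 31.0 CPM without them. The groups did not overlap. The log2 difference was 3.77 ± 0.25 in palisade (edgeR FDR = 9.22e-07) and 6.22 ± 0.34 in reference cells (FDR = 6.51e-08), the latter the largest of any member in either population. GH3.5 (AT4G27260), whose enzyme (WES1) also acts on salicylic acid, rose from 8.24, 10.8 and 8.28 CPM to 61.8, 76.6 and 81.0 CPM in palisade libraries, a log2 difference of 3.06 ± 0.18, and from 7.76 to 10.3 CPM to 95.4 to 109 CPM in reference libraries (edgeR FDR = 6.5e-09). GH3.2 (YDK1) was at 0.148 to 1.06 CPM with inhibitors and 3.19 to 4.83 CPM without them in palisade cells, and at 0.169 to 0.291 and 6.39 to 7.99 CPM in reference cells, with log2 differences of 3.07 ± 0.48 and 4.83 ± 0.27. GH3.17 (VAS2), which prefers glutamate as the amino acid, had only 0, 0 and 1 counts in the palisade libraries with inhibitors and 12, 5 and 4 without them. Its ratio of summed counts was 15.4-fold with a 95% counting interval of 2.48 to 638. The call was lost (edgeR FDR = 0.0636 and 0.0714) without replicate 1 or 2 of the palisade libraries with inhibitors. When any palisade library without inhibitors was left out, GH3.17 did not pass the filter on low counts and was not tested.

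Among the Aux/IAA genes, IAA2 (AT3G23030) had the largest difference. It was at 12.8, 10.6 and 7.05 CPM in palisade and 12.1, 11.9 and 9.31 CPM in reference libraries with inhibitors. Without them it was at 233, 270 and 184 CPM in palisade and 394, 495 and 376 CPM in reference libraries, which are log2 differences of 4.56 ± 0.24 (edgeR FDR = 2.57e-07) and 5.22 ± 0.17 (FDR = 3.68e-09). No other IAA gene differed by as much in both populations. IAA19 went from 22.7, 27.6 and 15.7 to 91.1, 78.5 and 77.0 CPM in palisade libraries (1.97 ± 0.20 on the log2 scale) and by 2.39 ± 0.16 in reference cells, and IAA16 by 1.75 ± 0.18 and 1.92 ± 0.15. IAA10, whose window holds none of the 3 motifs, differed by 1.53 ± 0.31 and 1.60 ± 0.23. IAA28, which acts in lateral root founder cells, was near the floor, with 5, 0 and 5 counts in palisade libraries with inhibitors and 22, 15 and 18 without them, a ratio of 4.04-fold (95% counting interval 2.04 to 8.88). Its palisade call was lost without replicate 1 or 2 without inhibitors or replicate 2 or 3 with them (edgeR FDR 0.0520 to 0.0745), and its reference call without replicate 1 without inhibitors (FDR = 0.0520). IAA1 (AXR5) was called in reference cells alone, from 2, 1 and 0 counts to 9, 15 and 20, a ratio of 13.9-fold (interval 4.46 to 70.1), while its palisade libraries had 0, 2 and 1 counts and 5, 7 and 6, with an edgeR FDR of 0.065. The difference between populations was not called for IAA1 (−1.50 ± 1.42, FDR = 0.627).

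**Figure D1:**
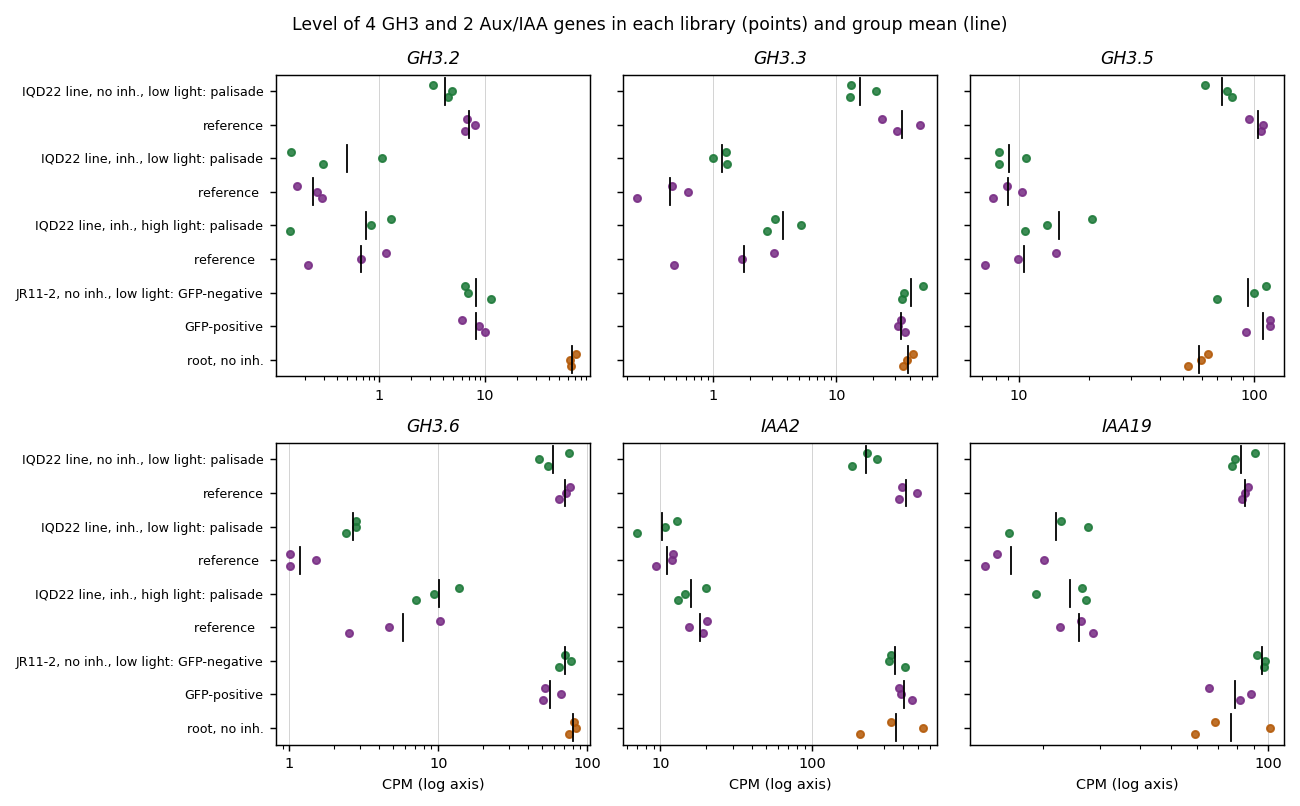
CPM on a log axis (x) of 4 GH3 and 2 IAA genes in each library of the 9 groups (y), with points for libraries and a vertical line for the group mean (green palisade or GFP-negative, purple reference or GFP-positive, orange root). For all 6 genes, the libraries of the IQD22 line made without inhibitors lie to the right of those made with them, for example 47.8 to 76.9 CPM against 1.02 to 2.82 CPM in low light for GH3.6.

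Of the 10 genes called in both populations, 5 (IAA19, IAA28, GH3.2, GH3.3 and GH3.5) hold TGTCTC in the window and 5 do not. Some members with high counts were not called. IAA8 was at 152, 106 and 97.6 CPM with inhibitors and 104, 82.8 and 81.3 CPM without them in palisade libraries, and IAA9 was lower without inhibitors by 0.53 ± 0.17 (edgeR FDR = 0.0376) and 0.51 ± 0.12 (FDR = 0.00508) on the log2 scale, below the limit on the fold. IAA18 (CRANE) was higher by 0.59 ± 0.13 and 0.75 ± 0.12, also below it.

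Other genes of the pathway were read from lists of receptors, ARFs, corepressors and enzymes of auxin metabolism. None of the 6 receptor genes and none of the 5 activating ARFs was called for inhibitors in either population. Of 5 corepressors, TPR3, a relative of TOPLESS, was higher without inhibitors in both (2.29 ± 0.24 and 2.33 ± 0.20), and of 10 other ARFs 1 was higher in palisade (ARF16, 1.03 ± 0.23) and 3 in reference cells (the largest ARF16, 1.98 ± 0.22). Of 7 genes of the amidohydrolase family, some of whose enzymes release auxin from its conjugates, 4 were higher without inhibitors in both populations and none was lower. These were ILL6, by 5.75 ± 0.36 on the log2 scale in palisade and 6.23 ± 0.27 in reference cells, IAR3, by 4.48 ± 0.25 and 4.32 ± 0.18, ILR1 and ILL5, the last with no count in palisade libraries with inhibitors. JAR1, the GH3 family member that conjugates jasmonate, was higher by 4.72 ± 0.25 and 4.93 ± 0.20. Of 10 other auxin-responsive genes, 3 of 6 tested were higher in palisade and 4 of 5 tested in reference cells, among them PID, a kinase that steers auxin transport, by 3.11 ± 0.39 and 4.33 ± 0.27. IQD22 itself was higher without inhibitors, by 1.26 ± 0.19 in palisade and 2.19 ± 0.17 in reference cells. The median of the 3 mesophyll markers was −0.94 in palisade cells, with none called, and −1.05 in reference cells, with 2 lower. Of the 7 vascular and bundle sheath markers, 1 was higher and 2 lower in palisade cells and none was called in reference cells. Of 3 hydathode markers, 2 were lower in reference cells (median −1.47, summed level 71.9 to 169 CPM with and 56.6 to 70.1 CPM without inhibitors) and none was called in palisade cells. A guard cell marker, KAT1, was higher in reference cells (2.41 ± 0.84), where the 3 guard cell markers summed to at most 0.847 CPM. No abaxial or epidermal marker was called. Their part in the members' differences was not tested.

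A pair of GH3 genes differed between the populations in opposite directions with and without inhibitors. With inhibitors, GH3.3 and GH3.6 were higher in palisade than in reference cells in each of the 3 pools, and without inhibitors they were lower in palisade cells in each of the 3 pools. GH3.3 differed by 1.29 ± 0.44 (log2, edgeR FDR = 0.0295) with inhibitors and by −1.14 ± 0.10 (FDR = 1.78e-07) without them. GH3.6 differed by 1.05 ± 0.26 (FDR = 0.00392) and by −0.32 ± 0.10 (FDR = 0.0191), the latter under the limit on the fold. Whether the size of the palisade to reference difference differed between libraries with and without inhibitors was tested by an interaction term in 12 libraries. The pool was a block and no limit was set on the fold. This term does not test a change of sign. It was called for GH3.3 (−2.41 ± 0.36, edgeR FDR = 0.000496), GH3.6 (−1.35 ± 0.25, FDR = 0.00326) and IAA2 (−0.62 ± 0.14, FDR = 0.0149), that is for 3 of 26 members against 3.36% of all genes tested (0.709% higher and 2.65% lower), all with a larger rise in reference cells. The members' median was −0.10 and that of all genes 0.10. Over all genes, 21.1% of the calls of this interaction were in the higher direction, 9.35% with upper-quartile scaling and 6.68% with DESeq2, whose median over all genes was −0.01. HAT2, an auxin-responsive homeobox gene, was the only gene of the other pathway lists to be called (−1.14 ± 0.29).

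The interaction of GH3.3 and GH3.6 was also called by DESeq2, with upper-quartile scaling and without each pool in turn, and was lost when the pool was left out of the model (edgeR FDR = 0.131 and 0.156). That of IAA2 was lost without pool B, C or H (FDR 0.0594 to 0.0768). The values with inhibitors rest on few counts. GH3.3 had 17, 15 and 22 counts in palisade and 11, 12 and 5 counts in reference libraries, and its call was lost without the first or the third pool (FDR = 0.0564 and 0.240) and with DESeq2 (FDR = 0.176). GH3.6 was at 0.94 on the log2 scale without the first pool, under the limit on the fold, and had an FDR of 0.0629 with DESeq2.

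**Figure D2:**
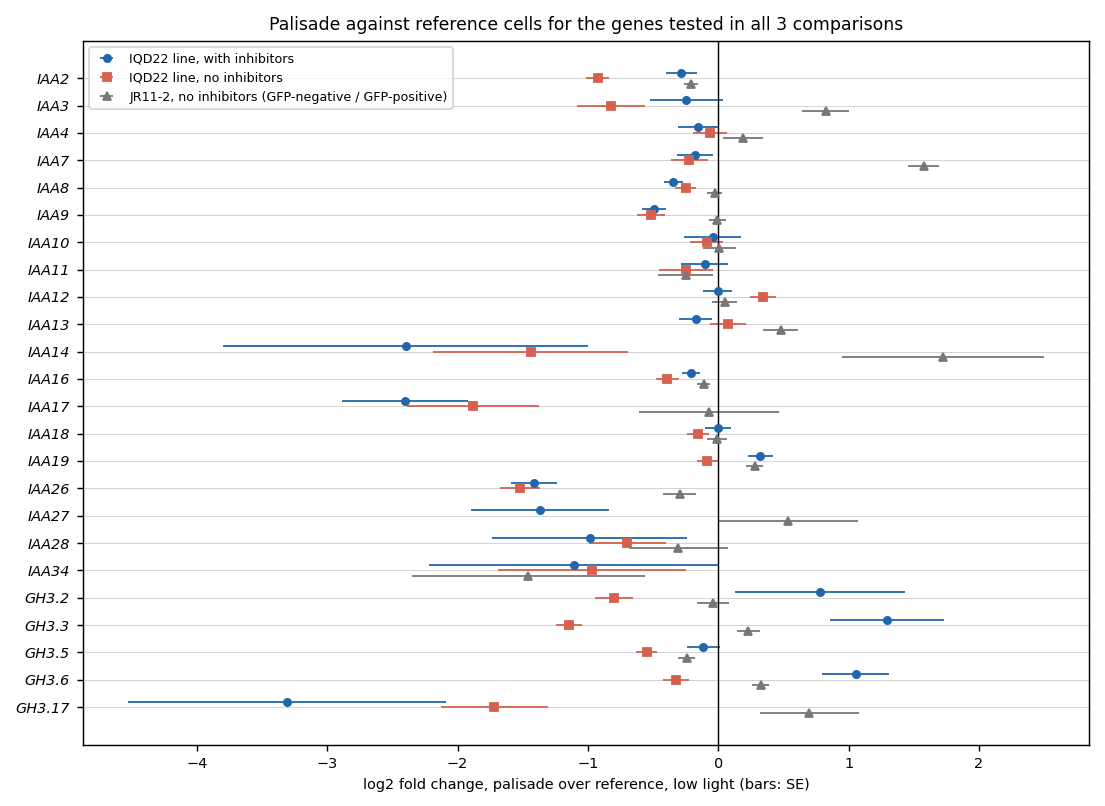
Log2 fold change of palisade over reference cells in low light (x, bars SE) for the members tested in all 3 comparisons (y), with circles for the IQD22 line with inhibitors, squares for the same line without inhibitors and triangles for JR11-2 without inhibitors. GH3.3 is at 1.29 with inhibitors and −1.14 without them, and the IAA27 square is left out because all palisade libraries had 0 counts.

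In palisade against reference cells with inhibitors in low light, 5 of 25 members tested were called, 2 higher and 3 lower, against 7.69% of all genes (2.13% higher and 5.56% lower). The 3 lower in palisade cells were IAA17, IAA26 and GH3.17. Of the members tested, 5 passed the filter on low counts through the reference libraries alone, among them IAA17 and GH3.17. The filter favoured a lower value in palisade cells for these 5. Among the 18 that passed it in each group by itself, 2 were higher and 1 lower, with a median of −0.13. IAA17 (AT1G04250, AXR3), a repressor of root growth responses, was at 0.0742, 0.333 and 0.294 CPM in palisade and 0.719, 1.46 and 1.31 CPM in reference libraries, a difference of −2.40 ± 0.48 (log2, edgeR FDR = 0.000682). IAA26 (AT3G16500, PAP1, a phytochrome-associated protein) was at 2.97, 3.06 and 2.17 CPM against 7.36, 6.46 and 6.01 CPM, a difference of −1.41 ± 0.18 (FDR = 3.45e-06). Neither gene overlapped between groups, and both calls held with DESeq2 and without each pool. GH3.17 rested on 1 count in 3 palisade libraries against 15 in the reference libraries, a ratio of 10.8-fold (95% counting interval 1.66 to 453), and was not called by DESeq2 (FDR = 0.238). With any pool left out, GH3.17 did not pass the filter and was not tested. The members' median was −0.18 and that of all genes −0.03.

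Without inhibitors, 6 of 27 members were called between these populations, all lower in palisade cells, against 8.75% of all genes in either direction, 2.04% in the higher and 6.70% in the lower direction. Of the 27, 24 had a negative fitted value, and the median of the 27 was −0.55 (−0.35 with at least 10 counts in every library) against −0.003 for all genes. Of these members, 3 (IAA14, IAA27 and IAA34) passed the filter through the reference libraries alone, which favoured a lower value in palisade cells. Among the 22 that passed it in each group by itself, 5 were called lower and none higher, with a median of −0.45. IAA26 was at 2.21, 3.71 and 2.94 CPM in palisade and 7.58, 8.40 and 8.51 CPM in reference libraries (−1.52 ± 0.15, edgeR FDR = 6.70e-07). IAA17 was at 0.0982, 0.318 and 0.219 CPM against 0.643, 0.453 and 1.19 CPM (−1.88 ± 0.51, FDR = 0.00760), and the call was lost without the third pool (FDR = 0.125) and with DESeq2 (FDR = 0.0692). IAA27 (PAP2), another phytochrome-associated protein, had 0 counts in all 3 palisade libraries and 9, 10 and 19 counts in the reference libraries. It was at least 3.86-fold lower in palisade cells against a floor of 3 counts per library. With any pool left out, IAA27 did not pass the filter on low counts and was not tested. GH3.17 was at 0.589, 0.265 and 0.176 CPM against 1.03, 1.36 and 0.931 CPM (−1.72 ± 0.41, FDR = 0.00331). IAA1 (5 to 7 against 9 to 20 counts, FDR = 0.0492) was not called without the second or the third pool or with DESeq2 (FDR = 0.0875, 0.325 and 0.289). IAA2 was lower in palisade cells by 0.93 ± 0.09, just under the limit on the fold, with no overlap between groups.

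After high light, 5 of 26 members were called between the populations, 2 higher and 3 lower, against 8.42% of all genes (2.06% higher and 6.36% lower). IAA34 passed the filter through the palisade libraries alone, and IAA27 and GH3.17 through the reference libraries alone, which favoured the direction of their values. Among the 22 that passed it in each group by itself, 1 was higher and 2 lower, with a median of 0.04. IAA17 was again lower in palisade cells, at 1.51, 0.966 and 1.45 CPM against 4.44, 7.57 and 7.81 CPM, a difference of −2.40 ± 0.23 (log2, edgeR FDR = 1.94e-10). IAA14 (SLR), a repressor of lateral root initiation, had 4, 3 and 2 counts in palisade and 27, 20 and 32 in reference libraries, a ratio of 7.44-fold (95% counting interval 3.73 to 16.9) with an FDR of 1.46e-05. IAA26 differed by −0.81 ± 0.17, under the limit on the fold. IAA27 had 3 counts in all against 31 (8.76-fold lower, interval 2.73 to 44.8), and its call was lost without the third pool (FDR = 0.0838) and with DESeq2 (FDR = 0.0632). Without the first pool, IAA27 did not pass the filter and was not tested. The 2 higher in palisade cells were less stable. GH3.3 differed by 1.11 ± 0.29 (FDR = 0.00235) with groups that overlapped and fell below the limit on the fold without the second or the third pool (0.86 and 0.76). IAA34 had 15, 9 and 5 counts against 4, 0 and 4, a ratio of 4.27-fold (interval 1.91 to 10.8), and was not called without the first or the second pool (FDR = 0.0693 and 0.185) or by DESeq2 (FDR = 0.128). IAA34 overlaps the gene AT1G15060 on the same strand, and reads that fall on both are not assigned to either by the counting used. Over the members the median was 0.04, and over all genes −0.01.

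Of the receptors, AFB1 was lower in palisade cells in all 3 comparisons of the IQD22 line (−2.60 ± 0.22 with inhibitors and −2.26 ± 0.20 without them in low light), and of the other ARFs ARF3 (−1.67 ± 0.11 and −1.44 ± 0.10) and ARF4 (−2.12 ± 0.16 and −1.88 ± 0.15), which act in abaxial identity. No activating ARF and no corepressor was called. ARF16 was higher in palisade cells with inhibitors in low light (1.18 ± 0.25) and DAO1, for an auxin oxidase, was lower in the other 2 comparisons (−1.12 ± 0.12 without inhibitors). Markers of several cell types also differed between the populations. The summed level of 7 vascular and bundle sheath markers was 25.8 to 39.6 CPM in palisade and 83.9 to 109 CPM in reference libraries with inhibitors in low light, 23.6 to 30.2 and 80.8 to 95.5 CPM without inhibitors, and 39.8 to 78.9 and 153 to 241 CPM after high light, with 6, 6 and 5 of the 7 lower and none at 0 in a group. That of 3 abaxial or spongy markers was 7.72 to 18.3 against 574 to 649 CPM, 12.4 to 21.2 against 361 to 465 CPM and 31.2 to 34.4 against 1272 to 1980 CPM, all 3 lower in each. Of 3 epidermal markers tested, 2 were lower in palisade cells in each comparison, at a summed level of at most 5.75 CPM. Of 3 hydathode markers, 1 was higher in palisade cells without inhibitors (summed level 95.1 to 161 against 56.6 to 70.1 CPM). After high light 1 of them was lower, and with inhibitors in low light none was called. No mesophyll or guard cell marker was called in these comparisons. Their part in the members' differences was not tested.

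JR11-2 gave another picture. In GFP-negative against GFP-positive cells, 2 of 28 members were called, both higher in GFP-negative cells, against 2.16% of all genes (0.714% higher and 1.44% lower). IAA7 (AT3G23050, AXR2), a repressor with a wide role in shoot and root growth, was at 13.6, 13.9 and 14.5 CPM in GFP-negative and 3.89, 5.36 and 4.69 CPM in GFP-positive libraries, a difference of 1.58 ± 0.12 (log2, edgeR FDR = 5.82e-09). The JR11-2 GFP-negative libraries were the highest of all leaf libraries for IAA7, as the other 21 lay between 3.89 and 10.4 CPM. IAA1 was called on 19, 33 and 29 against 12, 18 and 5 counts (1.15 ± 0.35, FDR = 0.0243) and was lost without the first or the third pool and with DESeq2 (FDR = 0.0554, 0.135 and 0.187). IAA3 (SHY2) was higher by 0.82 ± 0.18 (FDR = 0.00222), below the limit on the fold. The median log2 fold change was 0.01 over the members and −0.01 over all genes. Of the vascular and bundle sheath markers, 1 was higher in GFP-negative cells (SUC2, of companion cells, 1.10 ± 0.12) and 2 lower, and their summed level overlapped between groups (47.3 to 77.7 against 57.5 to 69.9 CPM). That of the abaxial or spongy markers was 88.9 to 112 against 221 to 282 CPM. Of these 3 markers, 2 were lower, and 1 was higher at an FDR below 0.05 with a fold under the limit. Of 3 hydathode markers, 1 was lower in GFP-negative cells. No epidermal, guard cell or mesophyll marker was called. Their part was not tested.

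The difference between both lines, without inhibitors, was tested as an interaction that was added after the data were seen. It was called for 15 of 27 members, all in the direction of a lower palisade to reference ratio in the IQD22 line, against 15.0% of all genes in either direction, 8.29% in that direction and 6.75% in the other. All 5 tested GH3 genes were among them. The lowest FDRs were those of GH3.3 (−1.39 ± 0.14, edgeR FDR = 5.50e-07), IAA7 (−1.81 ± 0.19, FDR = 7.97e-07), IAA2 (−0.73 ± 0.09, FDR = 9.58e-06) and IAA26 (−1.24 ± 0.20, FDR = 0.000205). The members' median was −0.62 and that of all genes below 0.01 in size. Of the marker lists, 5 of 7 vascular and bundle sheath genes were called in the same direction, with a median of −2.15, and of 3 abaxial genes 2 in the same direction (YAB5 and CORI3) and 1 in the other (KAN3, 0.98 ± 0.30). Of the epidermal and guard cell markers, 2 and 1 were called in the direction of the members, and 1 hydathode and 1 mesophyll marker and IQD22 in the other. Their part was not tested. The lines were sorted on different reporters, so line and gate cannot be told apart. With 1 pool left out, 10 to 13 members were called, and with the pool left out of the model 3 (IAA7, IAA26 and IAA27).

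High light for 2 h was compared with low light in cells prepared with inhibitors. In palisade cells 6 of 25 members were called, against 13.2% of all genes (8.07% higher and 5.15% lower), and in reference cells 7 of 26, against 16.6% (10.1% higher and 6.57% lower). The same 5 genes were called in both populations, IAA17, GH3.3 and GH3.6 as higher and IAA3 and IAA9 as lower. A share of all genes called in both was not counted. The members' median was 0.49 in palisade and −0.01 in reference cells, and that of all genes −0.01 and −0.02. With upper-quartile scaling the medians of all genes were −0.12 in both, and the share of calls over all genes that were higher was 50.6% in place of 61.0% in palisade and 52.0% in place of 60.5% in reference cells, with 6 and 7 members again called. The palisade median was 0.29 to 0.41 with 1 library left out and 0.03 with at least 10 counts in every library, and the reference median was −0.23 to 0.27 and −0.11. The difference between the 2 medians was not tested. In palisade cells 5 of the members tested passed the filter through the high light libraries alone, which favoured a higher value. Among these 5, IAA17 and IAA34 were called higher. Of the 18 that passed it in each group by itself, 2 were higher and 2 lower, with a median of 0.15. In reference cells 1 member, IAA6, passed it in this way and was called higher. Of the 23 others that passed it in each group there, 4 were higher and 2 lower, with a median of 0.02. Light levels come from different pools, so light and preparation cannot be told apart.

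GH3.6 was at 13.7, 9.30 and 7.12 CPM in palisade libraries after high light, above the 2.41 to 2.82 CPM of low light, a difference of 1.79 ± 0.24 (log2, edgeR FDR = 0.000153). In reference cells it was at 10.3, 4.68 and 2.51 CPM, above 1.02 to 1.51 CPM (2.09 ± 0.44, FDR = 0.00276). GH3.3 differed by 1.54 ± 0.32 (FDR = 0.00267) in palisade cells. In reference cells it was at 3.14, 1.73 and 0.481 CPM against 0.465, 0.625 and 0.242 CPM, the groups overlapped, and the call (1.77 ± 0.59, FDR = 0.0315) was lost when any 1 of 5 of the 6 libraries was left out (FDR 0.0543 to 0.149), the exception being the third high light library. GH3.5 was not called, at 20.6, 13.2 and 10.6 CPM against 8.24 to 10.8 CPM in palisade cells (0.58 ± 0.22, FDR = 0.0573).

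IAA17 went from 1, 5 and 5 counts to 20, 16 and 20 in palisade cells (2.28 ± 0.51 on the log2 scale, edgeR FDR = 0.00439) and from 0.719, 1.46 and 1.31 to 4.44, 7.57 and 7.81 CPM in reference cells (2.34 ± 0.31, FDR = 0.000112). The groups did not overlap in either population, and the interaction of light with population was not called for this gene. IAA9 fell from 65.8, 60.4 and 73.0 CPM to a range of 32.6 to 35.3 CPM in palisade cells (−1.07 ± 0.12, FDR = 4.41e-05) and from 90.1, 88.9 and 76.9 to 44.7, 40.1 and 42.4 CPM in reference cells (FDR = 5.28e-06). All low light libraries were above all high light libraries. Without the third low light library the palisade value was −0.99, under the limit on the fold. IAA3, whose repressor acts with cytokinin signalling in roots, fell from 1.19, 2.13 and 2.70 to 1.06, 0.664 and 0.872 CPM (−1.36 ± 0.38, FDR = 0.0157) and from 2.50, 1.72 and 2.28 to 0.819, 0.557 and 0.588 CPM (−1.93 ± 0.31, FDR = 0.000482). The palisade call of IAA3 was lost without the second high light or the third low light library (FDR = 0.0595 and 0.0712). It overlaps AT1G04230 on the opposite strand, and whether the counting used strand is not given in the sources used here.

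IAA14 had 2, 2 and 4 counts in reference cells in low light and 27, 20 and 32 after high light, a ratio of 12.2-fold (95% counting interval 5.91 to 29.3) with an edgeR FDR of 0.000188. In palisade cells it had 1 count in 3 libraries and 9 after high light, a ratio of 9.41-fold (interval 1.30 to 413) that was not called (FDR = 0.0728), and the interaction was not called either. IAA6 (SHY1) rested on 1 count against 12 in reference cells (14.8-fold, interval 2.20 to 635). Its call was lost without the second or the third low light library and with DESeq2 (FDR = 0.0964, 0.0976 and 0.0648). Without any of the high light libraries, IAA6 did not pass the filter and was not tested. IAA34 rested on 3 counts against 29 in palisade cells (10.1-fold, interval 3.13 to 51.9) and was lost without the first high light library (FDR = 0.0562). IAA16, the highest member, was higher by 0.89 ± 0.12 (FDR = 0.000201) and 0.81 ± 0.15 (FDR = 0.00106), under the limit on the fold. Its palisade libraries were at 117 to 128 CPM in low and 215 to 276 CPM in high light, with no overlap.

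**Figure D3:**
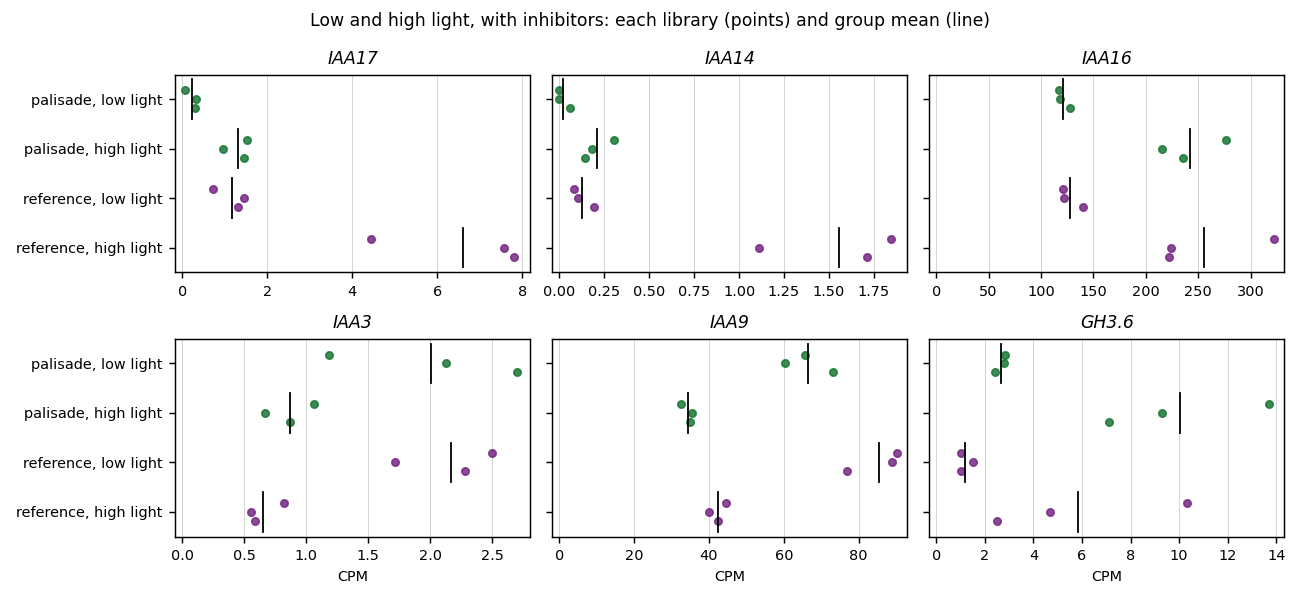
CPM (x, linear axis from 0) of 6 members in each library made with inhibitors in low or high light (y), with points for libraries and a vertical line for the group mean (green palisade, purple reference). IAA9 lies at 60.4 to 90.1 CPM in all low light libraries and at 32.6 to 44.7 CPM in all high light libraries, and IAA17 reaches 4.44 to 7.81 CPM in reference cells after high light.

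The light response differed between populations in 1 of 26 members, IAA19 (−0.51 ± 0.13, edgeR FDR = 0.0216), against 5.15% of all genes tested for this interaction (1.64% higher and 3.51% lower). It was at 22.7, 27.6 and 15.7 CPM in low and 26.3, 19.0 and 27.2 CPM in high light in palisade cells, and at 14.4, 20.1 and 13.2 CPM and 26.2, 22.7 and 28.6 CPM in reference cells. The reference libraries did not overlap between light levels and the palisade libraries did. The call was lost with DESeq2 (FDR = 0.124), with the pool left out (FDR = 0.713) and without pool G, H, K or L (FDR 0.0552 to 0.155). Among the other genes of the pathway, 2 receptor genes fell in palisade cells (AFB1 and AFB3, by 1.66 ± 0.47 and 1.29 ± 0.17) and 4 in reference cells (AFB1, AFB3, TIR1 and AFB2, the largest AFB1 at −1.66 ± 0.29), and none rose. DAO1 rose by 2.63 ± 0.14 and 2.99 ± 0.13. Of the 7 conjugate hydrolases, 4 rose in each population (ILL6 by 2.56 ± 0.19 and 2.89 ± 0.17), and HAT2 fell by 1.61 ± 0.26 and 1.71 ± 0.23. LHCB1.2, a mesophyll marker, was lower in high light (−1.90 ± 0.25 in palisade and −1.41 ± 0.25 in reference cells), the abaxial marker CORI3 was higher in both (1.32 ± 0.23 in palisade cells). Of 3 hydathode markers, 1 was higher in palisade and 2 in reference cells, with a summed level of 76.4 to 233 CPM in low and 251 to 487 CPM in high light in palisade and 71.9 to 169 and 242 to 752 CPM in reference cells. In reference cells KAT1 of guard cells was higher (2.84 ± 0.79) and 1 of 3 epidermal markers tested was lower, and 3 of 7 vascular and bundle sheath markers had an FDR below 0.05 upward with folds under the limit. Their part was not tested.

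Root protoplasts were compared with each leaf population made without inhibitors. In root against palisade cells without inhibitors, 23 of 34 members were higher and 3 lower, against 38.2% and 27.1% of all genes (65.3% in either direction). Against reference cells, 22 were higher and 4 lower, against 36.7% and 27.4% (64.1%). There were 21 genes higher in root than in both, and the share of all genes called so was not counted. The members' median was 2.72 and 2.34, or 2.63 and 2.34 with genes at 0 in leaf set to their bound, and that of all genes 0.38 and 0.32 (0.58 and 0.46 with upper-quartile scaling). These tallies hold members that passed the filter on low counts through the root libraries alone, 11 against palisade and 9 against reference cells, of which 10 and 9 were called higher, a direction that the filter set. Among the 22 and 24 members that passed it in each group by itself, 13 and 13 were higher and 3 and 3 lower, with medians of 1.94 and 2.07. With at least 10 counts in every library, which leaves out members low in either organ, the medians were 1.33 and 0.23, and those of all genes 0.07 and 0.12. Root libraries are of total protoplasts of Col-0, and leaf libraries of gated cells from a reporter line made in Col-0, so organ, gating and transgene cannot be told apart.

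The highest members in root per kb were IAA2 at 265 ± 125 CPM per kb (SD, n = 3), IAA17 at 166 ± 62.7, IAA9 at 140 ± 21.4 and IAA16 at 132 ± 37.1, and the range of each overlapped that of the next. IAA17 was at 226, 297 and 133 CPM in root and at 0.0982 to 0.318 CPM in palisade and 0.453 to 1.19 CPM in reference libraries, differences of 9.96 ± 0.43 (log2, edgeR FDR = 1.81e-10) and 8.08 ± 0.40 (FDR = 1.75e-09). Every root library was thus above every one of these leaf libraries. IAA28 was at 136, 174 and 87.7 CPM in root and 0.790 to 2.49 CPM in leaf libraries without inhibitors of this line. GH3.17 was at 93.4, 96.2 and 52.5 CPM in root against at most 1.36 CPM. IAA14 was at 23.6, 31.4 and 15.1 CPM against at most 0.339 CPM. IAA2 did not differ by the test (0.61 ± 0.29 against palisade, FDR = 0.0660).

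Several members were close to absent from leaf cells at this depth. IAA33 had 0 counts in all 24 leaf libraries and 91, 47 and 174 in root, at least 12.7-fold higher than in palisade cells against the floor. IAA31 had 1 count in all leaf libraries together and 63, 88 and 53 in root, at least 8.64-fold higher. IAA20 and IAA29 were at least 5.63-fold and 7.97-fold higher in root than in palisade cells, which had no count. IAA5 had at most 2 counts in any leaf library and 495, 836 and 523 in root, IAA30 at most 6 against 759, 1236 and 1364, and GH3.1 at most 6 against 542, 664 and 733. Against palisade cells, the counting intervals of these ratios were 96.4 to 2882 for IAA5, 175 to 5221 for IAA30 and 131 to 28833 for GH3.1. IAA27, at 0 in palisade cells, was at least 23.4-fold higher in root. IAA32 was low in both organs, with at most 4 counts in leaf and 13 to 20 in root (4.06-fold against reference cells, interval 1.63 to 13.0), and its call against reference cells was lost with DESeq2 (FDR = 0.0732) and without 4 of the 6 libraries (edgeR FDR 0.0516 to 0.106). IAA15 had at most 2 counts in any of the 27 libraries. The genes lower in root were IAA10 (1.88, 3.37 and 2.60 CPM against 6.28 to 12.2 CPM in palisade cells, −1.73 ± 0.31, edgeR FDR = 0.000168), IAA12 (BDL, −1.41 ± 0.21) and IAA18 (−1.54 ± 0.18), and IAA34 against reference cells alone, on 1, 5 and 6 counts. IAA12 was −1.05 ± 0.20 against reference cells and fell under the limit on the fold with upper-quartile scaling (−0.91) and without the first root or the second reference library (−0.95 and −0.89).

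**Figure D4:**
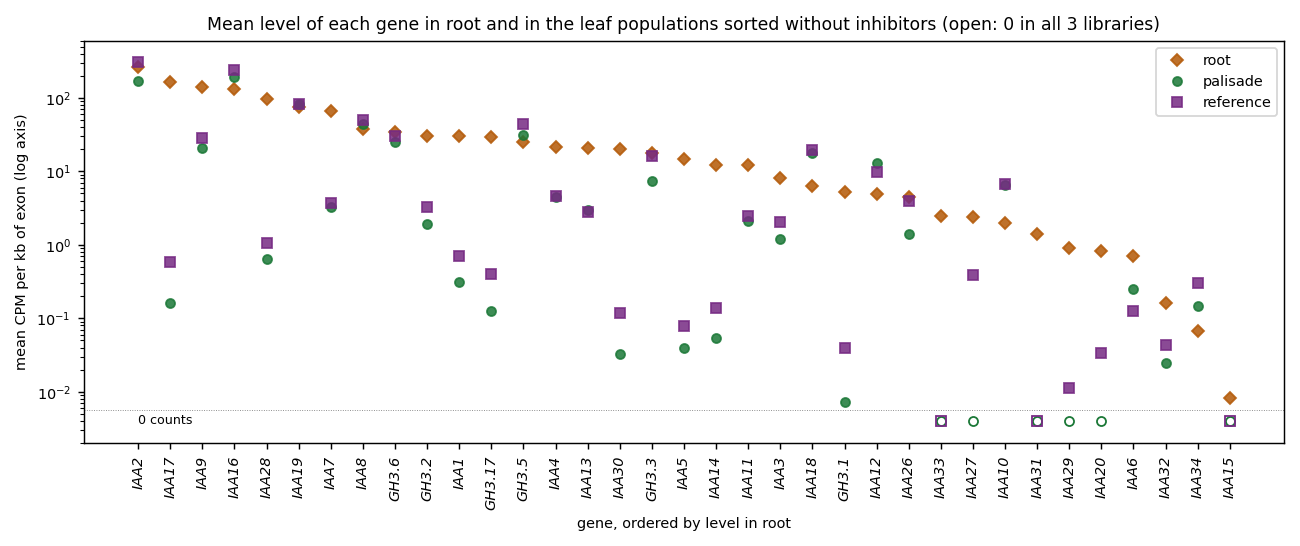
Mean CPM per kb of exon (y, log axis) of the 35 genes, ordered by level in root (x), in root (diamonds), palisade (circles) and reference libraries (squares) without inhibitors, with open symbols under the dotted line for groups of 3 libraries at 0 counts. IAA2 is the highest in root at 265 CPM per kb, and IAA33, IAA31 and IAA15 have no count in either leaf population.

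IAA4, IAA7, IAA9, IAA11 and IAA13 were detected in every leaf library and were also higher in root, by 2.23 ± 0.22, 4.29 ± 0.27, 2.72 ± 0.23, 2.52 ± 0.26 and 2.76 ± 0.20 on the log2 scale against palisade cells. GH3.5 and GH3.6, at 52.4 to 63.6 and 75.3 to 84.0 CPM in root, were not called against either leaf population made without inhibitors. Of the other pathway lists, 4 of 5 activating ARFs were higher in root (ARF5 by 3.55 ± 0.38 and ARF6 by 2.83 ± 0.29 against palisade cells), as were AFB1 (7.17 ± 0.28) and TIR1 (1.73 ± 0.19), and ARF11 and ARF2 were lower (−3.76 ± 0.25 and −2.51 ± 0.20). LBD17 and LBD16, auxin-induced genes of lateral root initiation, were among 6 of 10 other auxin-responsive genes higher in root than in each leaf population, and 1 of the 10 was lower. Other lists went the other way or both ways. Of 6 tested genes for other GH3 enzymes and auxin inactivation, 4 were lower in root (the median was −2.94 against palisade and −2.89 against reference cells) and 1 higher, and of 5 corepressors 2 were lower (TPR3 at −2.35 ± 0.26 and TPR4 at −1.45 ± 0.19 on the log2 scale against palisade cells) and none higher. Of the 7 conjugate hydrolases, 3 were higher and 3 lower than in palisade cells, and 2 higher and 3 lower than in reference cells.

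**Figure D5:**
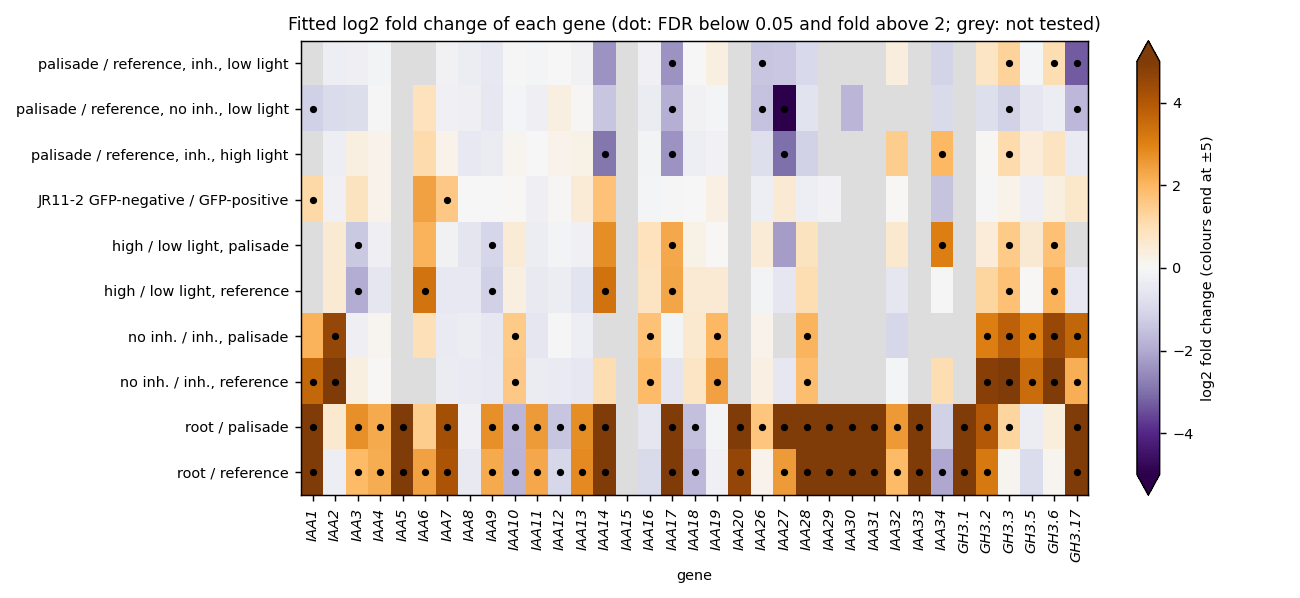
Fitted log2 fold change (colour, orange higher and purple lower, ends at ±5) of the 35 genes (x) in 10 comparisons (y, first group over second), with dots for calls and grey for genes not tested. The 5 GH3 genes tested there are orange in both inhibitor rows, and 21 genes are orange with a dot in both root rows. Values against groups at 0 counts are fitted and give no bound.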

How the data were processed

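RNA-seq libraries (stranded mRNA, single-end reads) were made from sorted leaf protoplasts and total root protoplasts. The authors aligned reads to TAIR10 with TopHat2 (2.0.9) and deposited raw counts per gene from HTSeq (0.6.1). The strand setting of the counting is not given in the sources used here. Reads without a unique alignment (4.33 to 9.75%) and reads on no gene or on several genes (0.971 to 3.28%) are outside these counts.

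Tests covered the 33323 nuclear genes, without 133 chloroplast and 146 mitochondrial genes. A gene entered a test where 3 libraries (6 for interactions) had 2 counts or more, and was tested with edgeR (4.0.16, R 4.3.3), by TMM scaling and the quasi-likelihood F-test, with Benjamini-Hochberg adjustment over all genes tested. A gene was called at an FDR below 0.05 and a fold above 2, and in interactions at the FDR alone. The SE of a log2 fold change is approximate, from the F statistic. Comparisons of populations and interactions had the protoplast pool as a block, from the pairing in the labels. Libraries of 1 pool deviated together (mean r 0.178 to 0.374, lowest pair 0.108, each library correlating best with its own pool). Depth ranged from 15074702 to 38792923 counts on genes. No pair of libraries held identical values. Folds of genes with few counts are ratios of summed counts with exact 95% intervals, and folds against a group at 0 are bounds against 3 counts per library.

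Every member called in a leaf comparison or interaction was named, as were those at or under the floor and the highest per kb, and at most 2 called genes in each direction from each pathway list, with exceptions, such as markers and JAR1, chosen after their values were seen. The members and lists were chosen with earlier results of these data known. Alternatives were upper-quartile scaling, DESeq2 (1.42.0), no filter, at least 10 counts in every library, models with and without the block, and leaving out each library or pool. The script was tested on simulated data. Sequences and exon lengths are from the RefSeq annotation of TAIR10.1, whose nuclear chromosomes carry the TAIR10 sequence. Python (3.11.15), numpy (2.4.6), pandas (2.3.3) and matplotlib (3.10.9) were used for the remaining steps.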

Additional observations from a re-analysis of the deposited data

Results flagged for a closer look

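Tests of a difference between effects gave members past their threshold (edgeR's quasi-likelihood test, FDR below 0.05, values on the log2 scale). The difference between high and low light libraries was smaller for IAA19 in palisade than in reference cells (−0.51), a call lost with DESeq2, without the pool as a block and without pool G, H, K or L (FDR 0.0552 to 0.713). The difference between libraries without and with inhibitors was smaller in palisade than in reference cells for GH3.3 (−2.41), GH3.6 (−1.35) and IAA2 (−0.62). All 3 calls were lost without the pool as a block (FDR 0.131 to 0.845) and that of IAA2 also without pool B, C or H. The palisade to reference ratio without inhibitors was lower in the IQD22 line than in JR11-2 for 10 IAA genes, namely IAA1 (−2.37), IAA2 (−0.73), IAA3 (−1.66), IAA7 (−1.81), IAA9 (−0.52), IAA14 (−3.18), IAA16 (−0.29), IAA19 (−0.38), IAA26 (−1.24) and IAA27 (−7.20, fitted against libraries at 0 counts and no bound). The same held for all 5 GH3 genes tested, GH3.2 (−0.77), GH3.3 (−1.39), GH3.5 (−0.32), GH3.6 (−0.66) and GH3.17 (−2.44). Without the pool as a block 3 of these 15 calls remained (IAA7, IAA26 and IAA27). Groups of 3 libraries were not searched for single libraries that stand apart.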

How the results depend on the processing

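No member's fitted difference that was called changed sign under any alternative that still tested it. For the called members, 574 of the values with 1 library or pool left out kept their call and 67 lost it, and under the other settings 516 kept it and 42 lost it. These tallies leave out called members that no longer passed the filter in such a fit, so they understate the calls lost. An example is IAA27 between palisade and reference cells without inhibitors. With at least 10 counts in every library, fewer members are tested, and the number called between palisade and reference cells was 2 with inhibitors in low light (5 in the reported fit), 2 without inhibitors (6), 1 in high light (5) and 1 in JR11-2 (2). It was 4 in reference cells for light (7), 6 in reference cells for inhibitors (11), and 13 and 11 for root against palisade and reference cells (26 each). With DESeq2 it was 2, 3 and 1 for palisade against reference cells with inhibitors in low light, in high light and in JR11-2, 0 for the light interaction (1) and 5 for the inhibitor interaction (3). Without a filter the light interaction had 2 members and the inhibitor interaction 5, which it also had with upper-quartile scaling. The cause was not tested.

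Without the pool as a block, 3 members were called between palisade and reference cells with inhibitors in low light and 3 in high light, 1 in JR11-2, 0 for the light and inhibitor interactions and 3 for the interaction with line (15). Where the pool was not part of the design, libraries share only a replicate number (mean r −0.0971 to 0.0932), and a block on it gave 6 and 7 members for light, 10 and 11 for inhibitors and 27 and 26 for root.

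Leaving out 1 library or pool at a time, the number called was 2 to 4 between palisade and reference cells with inhibitors in low light, 4 to 5 without inhibitors, 3 to 4 in high light and 1 to 2 in JR11-2. It was 4 to 8 and 5 to 7 for light in palisade and reference cells, 8 to 9 and 10 to 11 for inhibitors, 19 to 27 and 21 to 26 for root, 0 to 1 for the light interaction, 2 to 4 for the inhibitor interaction and 10 to 13 for the interaction with line. Depth limits the members near 3 counts, for which counting intervals are wide.

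Over all genes, the 10-count filter gave 699, 911, 799 and 268 calls between palisade and reference cells with inhibitors in low light, without inhibitors, in high light and in JR11-2 (1458, 1742, 1605 and 432 in the reported fits), 9036 and 9193 for root (14675 and 14453) and 1046 for the inhibitor interaction (649), which had 1051 without a filter. DESeq2 gave 585 for the light interaction (971) and 1956 for that with line (2979). Without the pool as a block there were 9 calls for the light, 22 for the inhibitor and 365 for the line interaction and 73 in JR11-2. Single pools moved the count to 446 for light (without pool K), 405 to 428 for inhibitors (without B, C or H) and 1680 for line (without E). In the reported fits, 6 members of the light and 8 of the inhibitor interaction had an unadjusted p below 0.05.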
